A study of Mus musculus with 2 samples.

Results

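The genes described here are 10 secreted matrix proteases of the ADAMTS family, *Adamts1*, *Adamts2*, *Adamts4*, *Adamts5*, *Adamts9*, *Adamts10*, *Adamts12*, *Adamts15*, *Adamts19* and *Adamts20*, out of 29924 gene names on the array. They were taken by gene name, with all of their probes, and the choice was made with their response to IWP-2 already known, so their values are given as a description without a test. The tissue was the ureter of wildtype NMRI mice at P0, the day of birth, explanted and cultured for 18 h on transwell membranes in medium with serum. Control ureters received the solvent DMSO at 1:1000, and treated ureters received 5 µM IWP-2, an inhibitor of Porcupine (PORCN), the enzyme that acylates WNT ligands before their secretion. The comparison asked which transcripts depend on WNT secretion in the newborn ureter. RNA of a control pool and a treated pool was hybridised to the same Agilent array, once with female pools (replicate 1, control in green and IWP-2 in red) and once with male pools (replicate 2, dyes swapped). Each group therefore had 2 samples, both of the same wildtype genotype, and sex and dye orientation cannot be told apart. The tissue was bulk, so fewer cells of a type and less RNA per cell cannot be told apart either.

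ADAMTS proteins are secreted zinc metalloproteinases that carry, after the catalytic domain, a disintegrin-like module and thrombospondin type 1 repeats, which hold them in the extracellular matrix. They fall into groups by substrate. The hyalectanases cut the large hyaluronan-binding proteoglycans versican and aggrecan, the procollagen N-propeptidases trim fibrillar procollagens before they assemble, and other members bind fibrillin microfibrils or cartilage oligomeric matrix protein. Versican-rich matrix is abundant in embryonic mesenchyme and is turned over as organs mature.

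The 10 genes had 16 probes, 1 probe for *Adamts1*, *Adamts15*, *Adamts19* and *Adamts20* and 2 probes for each of the others, and 15 of the 16 probes had control signals well above background on both arrays. Each probe was 60 bases long and was printed in 4 spots. The probes of a gene lie at different places in it and did not all report alike, so the first 30 bases of the *Adamts4*, *Adamts5* and *Adamts9* probe pairs, whose brighter and dimmer probes are contrasted in the results, are shown with that of *Adamts1*, whose gene is the neighbour of *Adamts5*. Positions are those of the array files in mm9, on the strand given, and each sequence runs 5′ to 3′ along that strand.
Adamts4 brighter probe, chr1:173189952-173189981, plus strand: cgcatctttgagcattagttttctcatgtg
Adamts4 dimmer probe, chr1:173190709-173190738, plus strand: aatgagaggaacaggatgtggtctggtatt
Adamts9 brighter probe, chr6:92723081-92723110, minus strand: tcagcatactcagagaacgacaggagatcg
Adamts9 dimmer probe, chr6:92743286-92743315, minus strand: ttgacacctaagaaaattctcatagttgca
Adamts5 brighter probe, chr16:85899480-85899509, minus strand: ccacgaccctcaagaacttttgcaaatggc
Adamts5 dimmer probe, chr16:85858432-85858461, minus strand: ggacacattgcaatacaggtccattcatta
Adamts1 probe, chr16:85795074-85795103, minus strand: gaaagagctcctgatttcttcttacaccat
The exon or untranslated region behind each position was not analysed here. *Adamts1* and *Adamts5* are adjacent on chromosome 16, with 0 protein-coding genes between them in the RefSeq gene order of GRCm38.p6, and the *Adamts1* probe and the brighter *Adamts5* probe lie 104.3 kb apart in mm9. *Adamts15* is likewise adjacent to *Adamts8* on chromosome 9, while *Adamts12* and *Adamts20* share chromosome 15 with 531 protein-coding genes between them. The 10 genes lie on 8 chromosomes.

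Signals are background-subtracted, loess-normalized intensities in arbitrary units with a floor of 15, and a change is the log2 ratio of IWP-2 over control within an array. Of the 39429 probes, 68.8% to 70.3% were well above background in each channel, and the SD of the log2 ratio over the 14321 genes tested was 0.22 in replicate 1 and 0.17 in replicate 2. As a check of the treatment, *Axin2*, a feedback inhibitor of canonical WNT signalling, had control signals of 181 and 154 and IWP-2 signals of 42.1 and 46.7, and it fell by 1.92 on the log2 scale (limma, adjusted p = 0.000556). All 5 tested WNT read-outs, *Axin2*, *Lgr5*, *Tcf7*, *Nkd1* and *Notum*, fell by limma, although *Nkd1* and *Notum* each lost the call under 3 of 10 alternatives and *Tcf7* under 1. The study had already reported *Axin2*, *Lgr5*, *Tcf7* and *Nkd1* as lower on these arrays. Their fall was thus known when the list was written and is not an independent check. Across all genes limma called 1.34% in either direction, 0.922% lower and 0.419% higher. A filter with the thresholds of the study was applied here to each array. It asked for a control signal above 100 and a change of 1.5-fold or more in the same direction in both. The filter kept 0.363% of genes as lower and 0.0712% as higher.

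*Adamts19* stood apart among the 10. The study had already reported this gene as lower with IWP-2 on these arrays, so its fall is not a new result. *Adamts19* belongs to a pair with *Adamts17* in the family tree, and its substrate is not established. Its signal was 337 in the control and 161 with IWP-2 in the female pools, and 231 in the control and 136 with IWP-2 in the male pools. Both IWP-2 values lay below both control values, and the female and male pools moved the same way. The change was 2.10-fold downward in replicate 1 and 1.70-fold downward in replicate 2, a mean log2 ratio of -0.92 (SD 0.21 between arrays, n = 2 arrays). The 4 spots of its single probe on chromosome 18 gave log2 ratios with an SD of 0.06 in replicate 1 and 0.02 in replicate 2. It was the only one of the 7 ADAMTS proteases with a sufficient control signal to pass the filter, 1 lower and 0 higher, beside the 0.363% and 0.0712% of all genes, and nothing is read from that count because the gene was chosen on this contrast. Ordered from the most lowered, its mean log2 ratio was number 25 of the 14321 genes tested, a place given as a description only, for the same reason.

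*Adamts17*, the nearest relative of *Adamts19*, gave other values. Its signals were 435 and 463 in the controls and 419 and 429 with IWP-2. The log2 ratios of -0.06 and -0.11 had a mean of -0.08 ± 0.07 (SE), which did not pass the test (limma, adjusted p = 0.794). The pair thus differed in size of change, although the difference between the 2 genes was not tested.

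**Figure D1:**
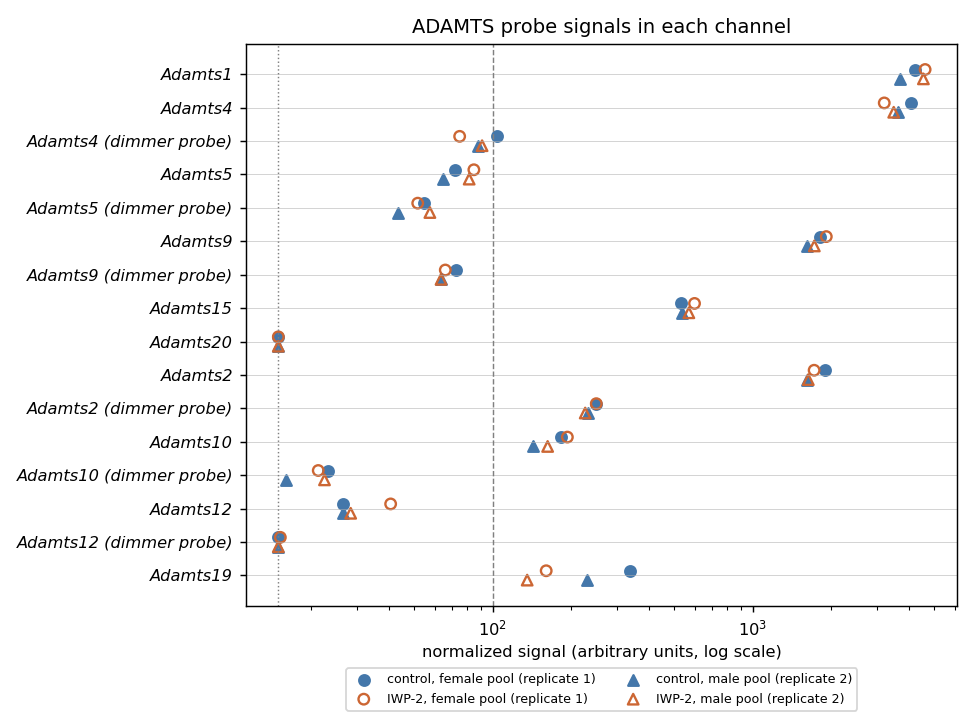
Signals of the 16 ADAMTS probes in each of the 4 channels, in arbitrary units on a log axis; filled symbols are controls, open symbols IWP-2, circles the female pools and triangles the male pools, with the floor of 15 dotted and a signal of 100 dashed. Adamts19 is the gene whose open symbols (161 and 136) lie farthest below its filled ones (337 and 231), and Adamts20 lies at the floor in every channel.

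The hyalectanases formed the largest group, with *Adamts1*, *Adamts4*, *Adamts5*, *Adamts9*, *Adamts15* and *Adamts20*, and their changes were small and of both signs. *Adamts1*, which cuts versican and aggrecan, had signals of 4224 in the control and 4603 with IWP-2 in the female pools, and of 3697 and 4534 in the male pools. Both IWP-2 values lay above both control values. The log2 ratios were 0.12 and 0.29, with a mean of 0.21 (SD 0.12, n = 2 arrays), or 1.16-fold, in a place where 94.6% of the genes tested had an equal or lower ratio. That place is likewise a description only.

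*Adamts4*, also called aggrecanase-1, had ratios of the other sign. Its brighter probe read 4067 in the control and 3205 with IWP-2 in the female pools, and 3622 and 3486 in the male pools. The IWP-2 and control values did not overlap, but the log2 ratio was -0.34 in replicate 1 and -0.06 in replicate 2, so that the mean of -0.20 (SD 0.20, n = 2 arrays) was no larger than the spread between the arrays. The dimmer probe, further along the plus strand, read 104 and 74.7 in the female pools and 87.9 and 91.1 in the male pools. Its log2 ratios of -0.48 and 0.05 had opposite signs, and on both probes the lower value with IWP-2 was thus mainly in the female pools.

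*Adamts5*, the other aggrecanase with a major role in cartilage, was dim. Its brighter probe gave 71.8 and 84.7 in the female pools and 64.4 and 81.3 in the male pools, control first, below the control signal of 100 that the filter asks for. Both IWP-2 values lay above both control values, with log2 ratios of 0.24 and 0.34. The dimmer probe, at 54.6 and 51.5 in the female pools and 43.4 and 57.4 in the male pools, gave log2 ratios of -0.08 and 0.40, and so the probes differed in sign in replicate 1. On the brighter probe the mean log2 ratio was 0.29 (SD 0.07, n = 2 arrays), and on the dimmer probe 0.16 (SD 0.34). The neighbouring genes *Adamts1* and *Adamts5* had positive mean log2 ratios on all 3 of their probes.

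*Adamts9*, a versican protease that is retained at the cell surface, gave values close to 0. Its brighter probe read 1810.0 and 1919 in the female pools and 1618 and 1726 in the male pools, control first. Values from the groups overlapped, because the female control lay above the male IWP-2 pool, while within each array the IWP-2 channel was slightly higher. The log2 ratios of 0.08 and 0.09 were nearly equal (mean 0.09, SD 0.01, n = 2 arrays). The dimmer probe, at 63.1 to 72.4 over the 4 channels, gave -0.14 and 0.01.

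*Adamts15* is another versican-cleaving enzyme. Its probe read 530.1 and 598 in the female pools and 533 and 568 in the male pools, control first. The controls were almost equal and both IWP-2 values lay above them. The mean log2 ratio was 0.13 (SD 0.06, n = 2 arrays), 1.13-fold in replicate 1 and 1.07-fold in replicate 2. Its neighbour *Adamts8*, with control signals of 697 and 459 and IWP-2 signals of 557 and 482, had log2 ratios of -0.32 and 0.07 and did not pass the test (limma, adjusted p = 0.788).

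*Adamts20*, a close relative of *Adamts9* that acts on versican in the developing skin, was at the floor of 15 in all 4 channels, and its probe was not well above background on any spot. No ratio is given for it.

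*Adamts2*, the procollagen I N-propeptidase, showed no shared direction. Its brighter probe read 1904 and 1723 in the female pools and 1623 and 1636 in the male pools, control first, and the groups overlapped. The log2 ratios were -0.14 and 0.01, with a mean of -0.07 (SD 0.11, n = 2 arrays). The dimmer probe read 249 and 250.4, then 233 and 227, with log2 ratios of 0.01 and -0.04. *Adamts2* was the gene of the 10 whose brighter probe had opposite signs in the 2 arrays.

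*Adamts10*, which binds fibrillin-1 and is mutated in Weill-Marchesani syndrome, was low and nearly flat. Its brighter probe read 184 and 194 in the female pools and 143 and 163 in the male pools, control first. The difference between the control pools was larger than the difference within either array, and the groups overlapped. The log2 ratios were 0.08 and 0.18 (mean 0.13, SD 0.07, n = 2 arrays). Its dimmer probe, between 16.1 and 23.3 in all channels and thus close to the floor, gave -0.12 and 0.49.

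*Adamts12*, which binds and cuts cartilage oligomeric matrix protein, was close to the floor. Its brighter probe read 26.6 and 40.5 in the female pools and 26.6 and 28.5 in the male pools, control first. Both IWP-2 values exceeded the controls, but the log2 ratio was 0.61 in replicate 1 and 0.10 in replicate 2, and the mean of 0.35 was no larger than the SD of 0.36 (n = 2 arrays). The dimmer probe was at the floor of 15 in 3 channels and at 15.3 in the female IWP-2 pool.

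**Figure D2:**
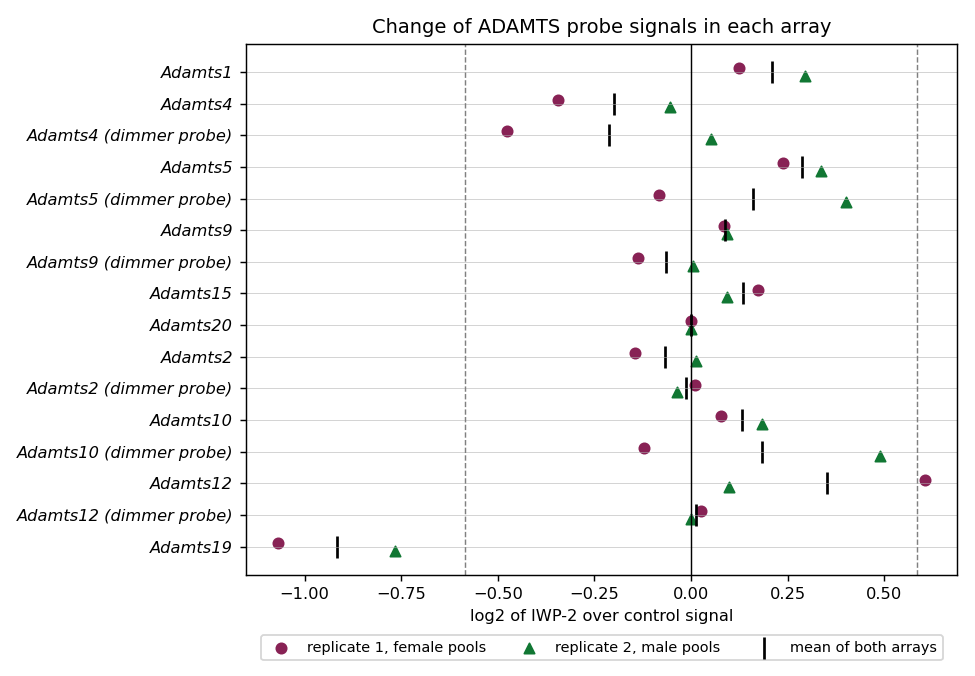
Log2 ratio of IWP-2 over control in each array for the same 16 probes; circles are the female pools (replicate 1), triangles the male pools (replicate 2), bars the mean of both, and dashed lines a 1.5-fold change. Adamts19 (-1.07 and -0.77) lies beyond the lower line in both arrays, and Adamts12 (0.61) is beyond the upper line in the female pools only.

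Counting the brighter probe of each gene, 2 of the 10 were lower with IWP-2 in both arrays (*Adamts4* and *Adamts19*), 6 were higher in both (*Adamts1*, *Adamts5*, *Adamts9*, *Adamts10*, *Adamts12* and *Adamts15*), 1 had opposite signs and 1 was at the floor. The signal needed for testing, a mean over 100 with or without IWP-2, was reached by 7 of the 10, all except *Adamts5*, *Adamts12* and *Adamts20*. Of the 7, 2 were lower and 4 higher in both arrays. Of the 14321 genes tested, 4177 were lower and 3676 higher in both arrays, and nothing is read from the counts of the ADAMTS genes. Among those 7 the control and IWP-2 signals did not overlap in 4, lower for *Adamts4* and *Adamts19* and higher for *Adamts1* and *Adamts15*. Non-overlap was frequent on these arrays, at 17.0% of all genes tested in the lower direction and 14.0% in the higher direction, and the count is not read further, since the same contrast chose the genes. Non-overlap also sets channels of different arrays side by side, although signals were normalized only within arrays. The median log2 ratio of the 7 was 0.09, beside -0.01 over all genes tested. Apart from *Adamts19*, the 7 lay between -0.20 and 0.21.

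**Figure D3:**
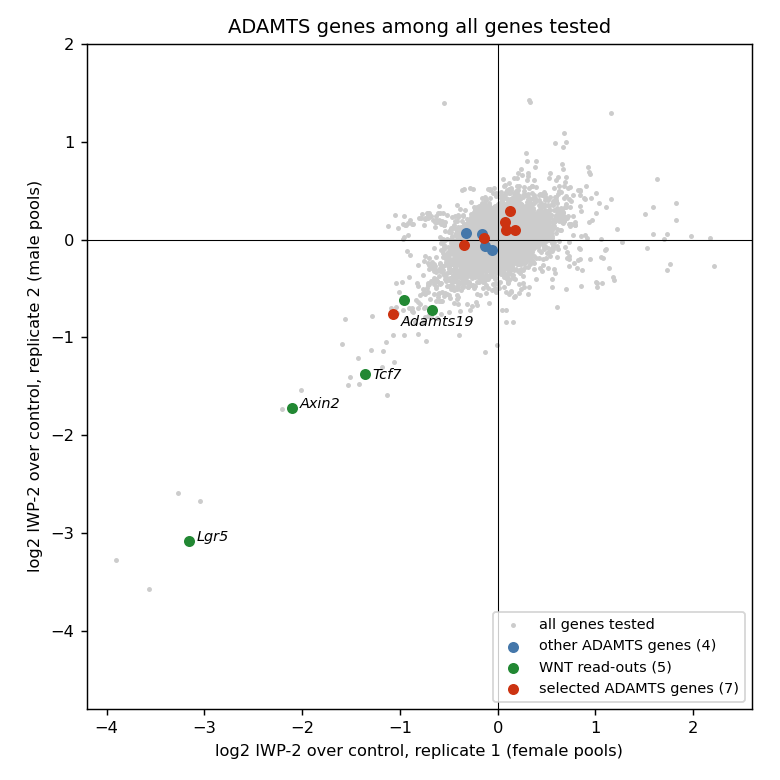
Log2 ratio of IWP-2 over control in replicate 1 (female pools, x axis) against replicate 2 (male pools, y axis) for the 14321 genes tested (grey); the 7 ADAMTS genes described here that were tested are red, 4 other ADAMTS genes blue and 5 WNT read-outs green. Adamts19 lies among the WNT read-outs in the lower left, at -1.07 and -0.77, and the other ADAMTS genes lie within the grey cloud.

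Markers of cell types were read beside these values. Of all genes tested, 53.0% had a mean log2 ratio below 0 and 13.0% had an unadjusted limma p under 0.05. For the lamina propria and fibroblasts, the connective tissue layer under the epithelium, 8 of 8 markers had a mean log2 ratio below 0 and 6 were lower in both arrays, with a median of -0.14 that came from -0.28 in the female pools and -0.05 in the male pools. Of these, *Aldh1a2*, which makes retinoic acid, fell by 0.63 on the log2 scale (limma, adjusted p = 0.0231), and *Thy1*, a surface glycoprotein of fibroblasts, fell by 0.48 (limma, adjusted p = 0.0476), calls lost under 4 and 7 of 10 alternatives, with adjusted p up to 0.356 and 0.431. The study had already reported *Aldh1a2*, *Thy1* and *Car3* as lower on these arrays, so their fall was known when they were listed. *Car3* averaged -0.64, and the remaining markers lay between -0.15 and -0.05. *Col1a1* and *Col3a1* also count in the procollagen list. The summed signal of the 8 markers went from 128095 in the control to 105601 with IWP-2 in the female pools, and from 111588 to 108150 in the male pools. For the urothelium 8 of 8 markers were above 0 and 7 were higher in both arrays, with a median of 0.29 (0.44 in the female and 0.15 in the male pools) and none past the test, while 6 had an unadjusted p under 0.05, and the summed signal went from 93042 to 121899 in the female pools and from 113557 to 122873 in the male pools. All 7 smooth muscle markers had a mean above 0, but only 3 were higher in both arrays (median -0.04 in the female and 0.23 in the male pools, 0 called by limma, 1 at an unadjusted p under 0.05). Their sums went from 86390.3 to 85879 in the female pools and from 74442 to 85690.3 in the male pools. Endothelial markers (5 tested, median -0.06) and macrophage markers (4 tested, median 0.14) had 0 calls by limma, with 0 and 1 at an unadjusted p under 0.05. Markers of kidney tubules summed to 75.0 to 135 over the 4 channels, with *Umod* and *Slc12a1* at the floor. The cell types that express each ADAMTS gene were not measured here, and the part of these marker shifts in the values of *Adamts19*, *Adamts1* and *Adamts4* was not tested.

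The other ADAMTS proteases were mostly dim or flat. Of 9, 4 were tested, *Adamts7*, *Adamts8*, *Adamts14* and *Adamts17*, all with a mean below 0 and 2 lower in both arrays (median -0.09). By limma 0 passed, and 0 had an unadjusted p under 0.05. *Adamts7*, the relative of *Adamts12*, averaged -0.10 (limma, adjusted p = 0.738), and *Adamts14*, a procollagen N-propeptidase like *Adamts2*, averaged -0.05 (limma, adjusted p = 0.947). *Adamts6*, the relative of *Adamts10*, was too dim to be tested, with 37.0 and 29.0 in the controls and 47.8 and 40.9 with IWP-2. *Adamts3*, *Adamts13*, *Adamts16* and *Adamts18* were at the floor in all 4 channels.

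ADAMTS-like proteins share the ancillary domains without the protease, and several bind microfibrils. Of 7, 4 were tested and 0 passed by limma, with 1 at an unadjusted p under 0.05 and a median of -0.07. Among the tested genes the value of largest size was that of *Thsd4* (ADAMTSL6), with signals of 353 and 287 in the controls and 250.4 and 250.9 with IWP-2. Its log2 ratios were -0.49 and -0.19, a mean of -0.34 ± 0.09 (SE; limma, adjusted p = 0.145). *Adamtsl4* averaged -0.13, *Adamtsl5* 0.08 and *Adamtsl1* 0.00, none past the test. *Adamtsl3*, too dim to be tested, read 59.7 and 59.96 in the controls and 86.3 and 76.1 with IWP-2, log2 ratios of 0.53 and 0.34.

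The tested genes of the hyalectan and hyaluronan matrix had ratios below 0 in both arrays but did not pass the test. Versican (*Vcan*), the main substrate of *Adamts1*, *Adamts4*, *Adamts9* and *Adamts15*, read 4193 and 3885 in the controls and 3377 and 3592 with IWP-2. Both IWP-2 values lay below both controls, and the mean log2 ratio was -0.21 ± 0.08 (SE; limma, adjusted p = 0.294). The hyaluronan synthases *Has1* and *Has2* averaged -0.26 (adjusted p = 0.225) and -0.22 (adjusted p = 0.261) by limma. These were the 3 genes tested of 10 listed, with a median of -0.22, 3 lower in both arrays, 0 called and 3 at an unadjusted p under 0.05. The other hyalectans *Acan*, *Bcan* and *Ncan* were at the floor.

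The procollagens and their processing proteins, which include the substrates of *Adamts2*, had 9 of 12 genes tested, 9 with a mean below 0 and 4 lower in both arrays. The median of -0.14 came from -0.24 in the female pools and 0.02 in the male pools, and 0 passed by limma, with 2 at an unadjusted p under 0.05. *Serpinh1*, the collagen chaperone, averaged -0.19 (adjusted p = 0.312), *Pcolce2*, an enhancer of procollagen C-proteinase, -0.19 (adjusted p = 0.372), *Col5a2* -0.18 (adjusted p = 0.684) and *Col3a1* -0.15 (adjusted p = 0.554), all by limma. *Adamts2* itself, at -0.07, lay between the median of the list and that of all genes.

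The microfibril and elastic fibre genes include that of fibrillin-1, which *Adamts10* binds. Of these genes 12 of 12 were tested and 10 were lower in both arrays (median -0.08). One passed the test. *Ltbp1*, which binds latent TGF-beta to microfibrils, read 1439 and 1287 in the controls and 878 and 931 with IWP-2, and it fell by 0.59 ± 0.08 (SE) on the log2 scale (limma, adjusted p = 0.0283), a call lost under 5 of the alternatives, with a second probe at the floor. *Fbn2*, a fibrillin of embryonic matrix, averaged -0.30 (adjusted p = 0.165), and *Fbn1* -0.17 (adjusted p = 0.565). *Fbln5*, an elastic fibre organiser, averaged 0.37 (adjusted p = 0.0675), higher in both arrays, and passed the test with normexp background correction only (adjusted p = 0.0368).

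The inhibitors, cofactors and processing enzymes of ADAMTS proteases gave 9 tested of 12, 0 called by limma and 2 at an unadjusted p under 0.05, with a median of -0.09. *Timp3*, the main tissue inhibitor of ADAMTS proteases, averaged 0.05, with control signals of 6010.5 and 5046 and IWP-2 signals of 5868 and 5529.9. *Lrp1*, the endocytic receptor that clears *Adamts4* and *Adamts5* proteins, averaged -0.20 (limma, adjusted p = 0.309). *Pcsk6*, a proprotein convertase, averaged -0.27 (adjusted p = 0.138), *Timp1* -0.15 (adjusted p = 0.479) and *Fbln1*, a cofactor of ADAMTS1, -0.10 (adjusted p = 0.707), all by limma. *Comp*, the partner of *Adamts12*, was at the floor in all channels.

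The sister families gave no call either. Of the membrane-bound ADAM family 11 of 11 listed genes were tested, 9 were higher in both arrays, the median was 0.10 and 0 passed by limma, with 3 at an unadjusted p under 0.05. *Adam23* had the largest mean, 0.34 (limma, adjusted p = 0.0801). Of the matrix metalloproteinases 11 of 17 were tested, with a median of -0.03, 0 calls by limma and 3 at an unadjusted p under 0.05. *Mmp13*, a collagenase, had the largest mean log2 ratio, 0.96 (limma, adjusted p = 0.148, and 0.0261 with normexp background correction), but from signals of 44.1 and 132 in the female pools and 287 and 362 in the male pools, so that its control pools differed more than its treated ones. Over these 8 lists beside the ADAMTS genes described here, 63 genes were tested, 1 was called lower and 0 higher by limma, and 18 had an unadjusted p under 0.05, 12 of them lower, which is 28.6% of those tested beside 13.0% of all genes tested. The lists were written with earlier results of these data known, so nothing is read from this difference in share.

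**Figure D4:**
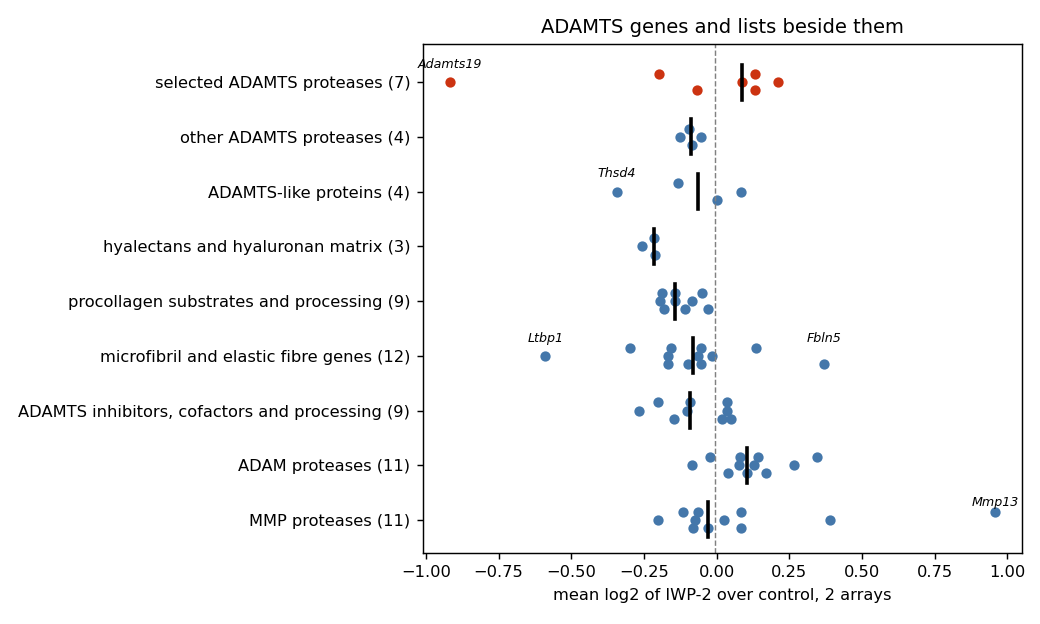
Mean log2 ratio of IWP-2 over control for each tested gene, by list; points are genes, black bars the list medians and the dashed line the median of all genes tested (-0.01). Adamts19 (-0.92) is the lowest ADAMTS point, Ltbp1 (-0.59) the lowest of the microfibril genes and Mmp13 (0.96) the highest of the matrix metalloproteinases.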

How the data were processed

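The deposited scanner files, 1 per array, hold intensities as background-subtracted, dye-normalized processed signals made by the authors with Agilent Feature Extraction (10.7.3.1 per the labels, 12.2.0.7 per the file headers). The deposited log10 ratios were used to check the direction, and the deposited spot flags to mark outliers. The deposited series table holds a score, a signed fold change with 1 decimal, and served as an alternative after its direction was matched to the arrays. It had a median of 1 in both columns. Control spots and outlier-flagged spots (3.32% and 3.22%) were left out, signals were loess-normalized within arrays (limma 3.58.1, R 4.3.3), floored at 15 and averaged as log2 over the spots of a probe. The brightest probe stood for a gene. Log2 ratios were tested against 0 with lmFit and eBayes, with 1 residual degree of freedom, over genes whose mean signal exceeded 100 with or without IWP-2, with Benjamini-Hochberg adjustment at 0.05. The ratios compare channels of one array, which pairs pools with the same number by construction. With 2 arrays, their number limits the precision. The eBayes step draws the variance of each gene toward that of all genes tested. The SE and p-values of limma therefore rest partly on the other genes, and they do not measure a spread beyond these samples. The steps were tested on simulated data. The genes named are all 10 ADAMTS genes, every called gene of a list and up to 4 per list with the largest mean change, and some others (*Adamtsl3*, *Adamts6*, *Adamts3*, *Adamts13*, *Adamts16*, *Adamts18*, *Timp3*, *Comp*, *Umod*, *Slc12a1*, *Acan*, *Bcan*, *Ncan*) were named after their values were seen. The ADAMTS genes and all lists were chosen with earlier results of these data known. Alternatives covered the background correction, normalization, outlier spots, floor, probe summary, thresholds, the series table and leaving out each array. Array and replicate are the same here, so no array or slide block could be fitted.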

Additional observations from a re-analysis of the deposited data

Results flagged for a closer look

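Opposite signs in the 2 arrays, with both sizes at least 0.1 on the log2 scale, marked 3 values among all probes of the 10 ADAMTS genes and the brightest probe of each tested list gene. With 1 array per sex, the differences between female and male pools were not tested, and sex and dye orientation cannot be told apart. The dimmer probe of *Adamts10* differed by -0.61 on the log2 scale, female minus male (-0.12 and 0.49), at signals near the floor. *Col1a2*, a chain of type I collagen and substrate of *Adamts2*, differed by -0.28 (-0.17 and 0.11). *Mmp14*, a membrane-bound matrix metalloproteinase, also differed by -0.28 (-0.11 and 0.16).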

How the results depend on the processing

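*Adamts19* kept its sign in all 10 alternatives that give it a value, with a mean log2 ratio from -1.07 to -0.77, and passed the filter in all except the fold threshold of 2, where 0 of the 10 genes passed. *Adamts2* changed sign when replicate 1 was left out (0.01), and the other ADAMTS genes above the floor kept theirs. *Adamts9*, whose arrays were nearly equal, moved by more than its SD in 4 of the 10, from 0.01 with the mean over probes to 0.14 with the series table. The 192 limma calls over all genes (132 lower, 60 higher) became 521 with normexp background correction, 115 with no normalization within arrays, 67 with the mean over the probes of a gene, 42 with no filter on dim probes, 44 with genes well above background tested, and 8 with no replicate block, that is with the 4 channels unpaired. Median centring gave 90 lower and 66 higher, 57.7% lower in place of 68.8%. The 61 genes past the filter became 113 with the control well above background, 19 with a fold of 2, 390 with a fold of 1.2, and 103 to 271 when either replicate was left out. In the lists, the single call *Ltbp1* became 6 calls with normexp (22 at an unadjusted p under 0.05), and 0 by limma with no normalization within arrays (17), the mean over probes (15), no replicate block (7), no filter on dim probes (18) and genes well above background tested (18), its adjusted p running from 0.0045 to 0.343. *Adamtsl1* turned to -0.0023 with no normalization within arrays. Among named genes outside the ADAMTS set, 355 values kept their direction and side of the threshold, 23 lost a call and 2 gained one. The losses were 7 for *Thy1* (highest adjusted p 0.431), 5 for *Ltbp1*, 4 for *Aldh1a2* (0.356), 3 each for *Nkd1* (0.489) and *Notum* (0.855) and 1 for *Tcf7* (0.0932), while *Axin2* and *Lgr5* kept theirs. *Fbln5* (adjusted p 0.0368) and *Mmp13* (0.0261) gained one with normexp. The causes were not tested. Limma calls were not made on the series table, whose rounding leaves no spread between arrays for some genes, such as *Adamts9* and *Adamts10*. Genes at the floor in all channels were left out of both dim-filter alternatives. Signals below 100 (*Adamts5*) and near or at the floor (*Adamts12*, *Adamts20*) limit what can be seen.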
